A study of Mus musculus with 5 samples.

Results

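Hox genes encode homeodomain transcription factors and lie in 4 chromosomal clusters, HoxA to HoxD, in which each gene carries a paralog number from 1 to 13. The members were the protein-coding genes of the deposited table whose symbol is Hox, a cluster letter and a paralog number, which gave 39 of the 55357 genes. HoxA held 11 of them, HoxB 10, HoxC 9 and HoxD 9. Genes with the same paralog number in different clusters descend from one ancestral gene, and along each cluster low numbers are used towards the head of the embryo and high numbers towards the tail. Hox clusters are classic targets of the Polycomb repressive complexes. The catalytic subunits of PRC1, RING1A and RING1B, place ubiquitin on histone H2A, a mark of silent Hox genes, and adult skin cells retain Hox transcription that reflects the position of the skin on the body.

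RNA was sequenced from hair follicle stem cells of the bulge, the lower part of the permanent follicle. The cells were taken from the back skin of mice aged 75 postnatal days and gated as EpCAM+, Sca1-, α6-integrin-high and CD34+ cells. The 3 PRC1 i2KO samples were K15-CrePR1, Ring1a-/- and Ring1b flox/flox, so that Ring1b is removed where the K15 promoter drives a Cre that RU-486 activates. The 2 Control samples were Ring1a-/- and Ring1b flox/flox without Cre, so the cells of both groups lacked Ring1a. Skin of both groups had received 1% RU-486 daily for 10 days from postnatal day 50, and the cells were taken 15 days after the last application. Each polyA-selected library was built on 50 ng of RNA out of 50000 cells, and the K15 promoter limits deletion to cells that use it and to their progeny.

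Library totals were 9675996, 21102727 and 18657555 estimated reads in PRC1 i2KO replicates 1 to 3, and 8270419 and 32463173 in Control replicates 1 and 3. Separate animals are not named as the source of the samples, and the p-values thus cover no more than the spread among these 5 libraries. Rnf2, the gene of RING1B, had 48.05, 46.55 and 50.18 CPM (reads scaled to TMM-adjusted library size) in PRC1 i2KO libraries, against 67.88 and 57.68 CPM in Control libraries (edgeR adjusted p = 0.0363, up to 0.251 when 1 library was left out). Ring1, the gene of RING1A, had 19.57, 28.61 and 24.77 CPM in PRC1 i2KO, against 30.25 and 27.5 CPM in Control, although its deletion is in every label, so reads summed over a whole gene do not check either deletion. Cd34, the surface marker of the sort, stood at 10.98, 12.31 and 37.19 CPM in PRC1 i2KO libraries, against 1547 and 1696 CPM in Control libraries. Over all 15665 tested genes, 15.1% were called lower and 18.8% higher in PRC1 i2KO cells (edgeR adjusted p under 0.05). Of the marker lists, 6 of 10 tested bulge genes were lower in PRC1 i2KO cells, with a summed level of 5320 to 7268 CPM against 20060 to 21050 CPM in Control. All 7 upper follicle genes were higher, with 7967 to 8161 CPM in PRC1 i2KO against 575 to 803.2 CPM in Control, as were all 7 sebaceous gland genes, with 2999 to 3534 CPM in PRC1 i2KO against 443.8 to 451.3 CPM in Control, and all 7 suprabasal genes, with 1626 to 2553 CPM in PRC1 i2KO against 960 to 977.4 CPM in Control. Fibroblasts of the dermis use Hox genes too, and of their 10 markers 4 were tested, 3 lower and 1 higher, with a sum of 32.93 to 33.73 CPM in PRC1 i2KO and 72.04 to 74.03 CPM in Control. Most of that sum was Col1a2, while Mfap5 was at 0 in every library, Lum and Twist2 had 2 reads each in a single library, and Pdgfra was lower (log2 fold change −2.86, edgeR adjusted p = 0.00465). The calls of Col1a1 and Dcn, also fibroblast markers, were lost in fits with 1 library left out and in the limma fits on TPM. Dermal papilla markers summed to 4.867 to 10.41 CPM in PRC1 i2KO and 17.99 to 34.92 CPM in Control, with Prom1 at 0 throughout and 1 of 2 tested genes lower. That gene was Crabp1, which made up most of the Control sum. The sum of the other dermal papilla markers overlapped between the groups. Calls of Cd34, Lhx2 and Nfatc1 (bulge) and of Krt1, Lor and Sbsn (suprabasal) were each lost in fits with 1 library left out. That of Flg, a suprabasal gene, was lost in the limma fits on TPM. The part of the listed markers in the Hox results was not tested.

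The promoters of 22 of the 39 members were found by symbol in RefSeq windows of 250 bases before to 50 after a gene start, 24 windows in all, on GRCm38.p6, which is an earlier build than the mm39 named for the deposited values. CpG-dense promoters are where Polycomb complexes are usually found in mammals. A gene that fell and has a CpG-dense window (Hoxa5), a gene that fell and has few CpGs (Hoxd4), a gene that was not called (Hoxa9) and a gene with no read in any library (Hoxd13) are shown with every CG in capitals. Hoxa5 lies at chr6:52204538-52204837, minus strand. Hoxd4 lies at chr2:74721728-74722027, plus strand. Hoxa9 lies at chr6:52227321-52227620, minus strand. Hoxd13 lies at chr2:74667975-74668274, plus strand. Each is written 5′ to 3′ in the direction of its gene.
Hoxa5: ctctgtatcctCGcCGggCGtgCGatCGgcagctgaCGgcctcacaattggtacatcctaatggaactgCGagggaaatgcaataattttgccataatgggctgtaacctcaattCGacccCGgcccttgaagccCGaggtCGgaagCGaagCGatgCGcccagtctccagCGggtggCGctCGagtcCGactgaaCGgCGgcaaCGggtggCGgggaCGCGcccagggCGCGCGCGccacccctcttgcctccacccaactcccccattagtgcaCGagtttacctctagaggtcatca
Hoxd4: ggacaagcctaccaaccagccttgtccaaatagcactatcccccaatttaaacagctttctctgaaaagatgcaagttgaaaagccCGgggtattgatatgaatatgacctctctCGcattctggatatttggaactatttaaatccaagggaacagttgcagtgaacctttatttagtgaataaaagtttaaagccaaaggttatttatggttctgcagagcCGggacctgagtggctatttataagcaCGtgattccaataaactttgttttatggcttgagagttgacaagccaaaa
Hoxa9: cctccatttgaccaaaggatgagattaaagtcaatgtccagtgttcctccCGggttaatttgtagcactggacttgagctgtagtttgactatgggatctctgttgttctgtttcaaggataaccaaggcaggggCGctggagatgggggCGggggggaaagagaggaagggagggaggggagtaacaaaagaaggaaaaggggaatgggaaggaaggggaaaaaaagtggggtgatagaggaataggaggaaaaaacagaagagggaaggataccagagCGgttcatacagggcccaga
Hoxd13: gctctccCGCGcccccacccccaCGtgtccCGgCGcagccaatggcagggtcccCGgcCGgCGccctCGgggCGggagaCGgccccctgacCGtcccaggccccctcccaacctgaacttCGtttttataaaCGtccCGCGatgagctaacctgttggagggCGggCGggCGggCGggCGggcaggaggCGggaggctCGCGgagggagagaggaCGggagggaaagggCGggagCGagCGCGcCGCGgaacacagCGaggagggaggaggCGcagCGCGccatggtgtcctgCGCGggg

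These 4 windows hold 29, 4, 4 and 37 CpGs in the order Hoxa5, Hoxd4, Hoxa9 and Hoxd13. Over the 24 Hox windows the count ran from 4 to 45 with a median of 14.5, and 11 windows reached the upper quartile of all promoters, which is 20. The median over all 32851 RefSeq promoter windows was 7. The 10 matched genes that fell in PRC1 i2KO cells had a median of 11.5 CpGs, the 3 matched genes that were tested and not called a median of 13, and the 11 windows of 9 genes with too few reads to test a median of 21. The letters TGATNNAT, the joint site of a Hox protein with a PBX partner, were searched on both strands and stood in 4 of the 24 Hox windows (16.7%), against 8.85% of all windows. One of these was the window of Hoxa2 and another that of Hoxb8.

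Hox transcripts were less abundant in PRC1 i2KO cells as a family. Summed over the 39 genes they came to 339, 349 and 536.8 TPM (the authors' unit, scaled to gene length) in PRC1 i2KO libraries, against 916.2 and 984.5 TPM in Control libraries. The lowest Control library was above the highest PRC1 i2KO library, and the means of 408.3 ± 111.4 TPM in PRC1 i2KO and 950.3 ± 48.4 TPM in Control (SD, n = 3 and 2) gave a ratio of 0.43. Of the 26 genes with enough reads to test, 21 were lower in PRC1 i2KO cells and 0 were higher at an edgeR adjusted p under 0.05, where 15.1% of all 15665 tested genes were called lower and 18.8% higher. With all libraries fitted, no Hox gene was higher at an unadjusted p under 0.05 in edgeR (0) or in DESeq2 (0). The values of both groups did not overlap for 22 of the 26 genes, all lower in PRC1 i2KO, where 29.4% of all tested genes were lower and 30.0% higher without overlap. The median log2 fold change, PRC1 i2KO over Control, was −1.13 over the 26 genes and −0.006 over all tested genes, with single Hox genes between −2.26 and 0.59. In bulk RNA of sorted cells, fewer cells of a type and less RNA per cell cannot be told apart.

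The 21 called genes were below Control in each of the 20 alternative settings that tested them, but not all calls held when a library was left out. The 10 called in every such fit were Hoxa3, Hoxa5, Hoxa7, Hoxb3, Hoxb6, Hoxb9, Hoxc6, Hoxd4, Hoxd8 and Hoxd9. Between 11 and 23 Hox genes were called lower with 1 library left out. The count was 14, 13 and 23 on omission of PRC1 i2KO replicate 1, 2 or 3, and 15 and 11 on omission of Control replicate 1 or 3. The PRC1 i2KO libraries were not alike. The median log2 ratio of the tested Hox genes to the Control mean was −1.35, −1.29 and −0.743 in PRC1 i2KO libraries 1, 2 and 3, against −0.0387 and 0.0378 in the Control libraries. Replicate 3 was the highest PRC1 i2KO library for 22 of the 26 genes and replicates 1 and 2 for 2 genes each. It also had the highest Cd34 level of its group (37.19 CPM), and the part of that difference was not tested.

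**Figure D1:**
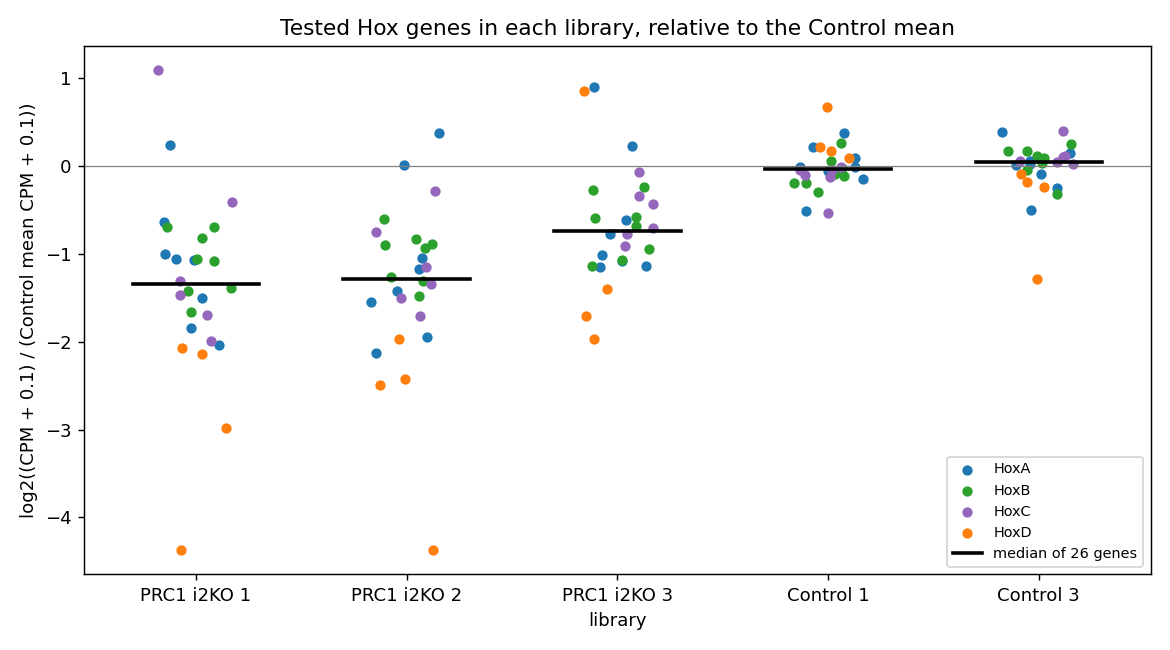
Each point is 1 of the 26 tested Hox genes in 1 library, as the log2 ratio of its CPM to the Control mean CPM (0.1 added to both), coloured by cluster, with the median as a black line and the 3 PRC1 i2KO libraries left of the 2 Control libraries. The medians are −1.35, −1.29 and −0.743 in PRC1 i2KO libraries and near 0 in Control, so PRC1 i2KO replicate 3 lies between the other PRC1 i2KO libraries and Control.

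By position along the clusters, the central genes with paralog numbers 4 to 8 carried most Hox transcripts and were lower throughout. All 15 central genes were tested, 14 were called lower, and the 2 groups overlapped for 0 of the 15 (median log2 fold change −1.22). Their summed level was 240.3, 256.1 and 400.9 TPM in PRC1 i2KO libraries, against 689.6 and 772.4 TPM in Control. Of the 8 anterior genes with numbers 1 to 3, 6 were tested and 4 fell (median −0.64), with a sum of 64.94, 66.86 and 94.67 TPM in PRC1 i2KO, against 155.3 and 154.1 TPM in Control. Of the 16 posterior genes with numbers 9 to 13, 5 were tested and 3 fell (median −0.51), and their sum was 33.76, 26.06 and 41.24 TPM in PRC1 i2KO, against 71.21 and 58.08 TPM in Control. No test compared these classes with each other, and the posterior class rests on few genes. With 1 library left out, 3 to 5 anterior, 6 to 15 central and 2 to 3 posterior genes were called lower, with 6 central genes without Control replicate 3.

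Paralog group 7 was the most abundant in either group of cells, with 86.56, 83.23 and 126.6 TPM in PRC1 i2KO libraries, against 182.4 and 249.9 TPM in Control libraries. Group 8 followed with 50.89, 69.8 and 118.4 TPM in PRC1 i2KO, against 174.3 and 187.9 TPM in Control, and group 6 with 39.62, 48.81 and 80.0 TPM in PRC1 i2KO, against 163 and 167.6 TPM in Control. In PRC1 i2KO the libraries of group 8 overlapped those of groups 6 and 7, while group 6 lay below group 7. In Control those of groups 7 and 8 overlapped and those of group 6 lay just below. Beyond group 9 the sums dropped under 1 TPM in groups 10, 11 and 12, and group 13, which is Hoxc13 alone, reached 15.65, 12.51 and 17.2 TPM in PRC1 i2KO against 23.15 and 24.85 TPM in Control. The ratio of means, PRC1 i2KO over Control, was lowest in groups 4 (0.335) and 6 (0.34).

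**Figure D2:**
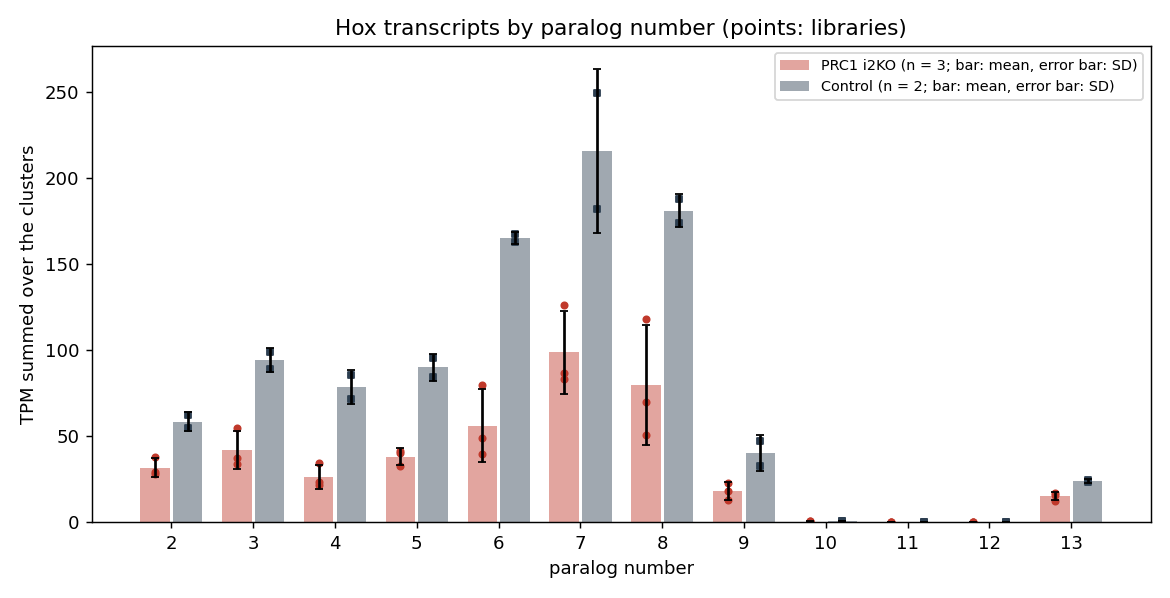
Bars show the mean TPM summed over the clusters for each paralog number from 2 to 13, with SD, for PRC1 i2KO (n = 3, left bar) and Control (n = 2, right bar), and points show single libraries. The sums peak at number 7 in both groups, PRC1 i2KO is lower from number 2 to number 9, and only number 13 stands above the baseline after number 9.

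The HoxA cluster was lower in PRC1 i2KO cells in its numbers 2 to 7. Of its 8 tested genes 6 fell (median log2 fold change −1.20), and its summed level was 127.8, 117 and 186.2 TPM in PRC1 i2KO, against 320.3 and 370.4 TPM in Control, a ratio of 0.416. Hoxa7, a central gene that helps pattern the thoracic skeleton, was the most abundant Hox gene by mean TPM in PRC1 i2KO (78.28 TPM) and in Control (174.6 TPM). It had 71.97, 66.8 and 98.57 CPM in PRC1 i2KO libraries, against 135.6 and 166.3 CPM in Control libraries. All 3 PRC1 i2KO values lay below both Control values, a 1.91-fold lower level (log2 fold change −0.93, SE 0.18, edgeR adjusted p = 0.00447). Hoxa5, known for its part in lung and neck skeleton development, had 31.38, 23.53 and 29.67 CPM in PRC1 i2KO, against 60.63 and 65.66 CPM in Control. The groups stood well apart, a 2.25-fold lower level with the smallest adjusted p of the cluster (log2 fold change −1.17, SE 0.15, edgeR adjusted p = 0.000262). Hoxa3, which mice need to form the thymus and parathyroid, had 15.01, 21.19 and 28.14 CPM in PRC1 i2KO, against 61.61 and 62.71 CPM in Control. It fell 2.87-fold without overlap (log2 fold change −1.52, SE 0.22, edgeR adjusted p = 0.00121).

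Among the other HoxA genes, Hoxa2, which sets the identity of the second pharyngeal arch, had 7.352, 3.946 and 7.574 CPM in PRC1 i2KO libraries, against 16.48 and 14.42 CPM in Control. Hoxa4 had 2.175, 3.006 and 2.788 CPM in PRC1 i2KO, against 7.378 and 5.283 CPM in Control. Hoxa6 had 2.692, 2.208 and 5.786 CPM in PRC1 i2KO, against 9.838 and 10.1 CPM in Control. None of the 3 overlapped, and their levels were 2.47-, 2.33- and 2.77-fold lower in that order. Their calls were less steady: that of Hoxa2 was lost without Control replicate 1 (edgeR adjusted p = 0.0501), and those of Hoxa4 (0.0543 to 0.166) and Hoxa6 (0.0633 to 0.0963) in each fit that left out a library other than PRC1 i2KO replicate 3. Hoxa2, Hoxa4 and Hoxa6 were not called in the 3 deepest libraries, nor was Hoxa4 after thinning or with either replicate block. Hoxa9, which keeps blood progenitors dividing and is often raised in leukaemia, had 4.349, 4.791 and 6.943 CPM in PRC1 i2KO, against 4.796 and 2.579 CPM in Control. It was the tested Hox gene with the highest fold change, but its values overlapped (log2 fold change 0.59, SE 0.41, edgeR adjusted p = 0.299). In TPM, Hoxa9 stood at 6.02, 2.55 and 9.12 in PRC1 i2KO against 6.73 and 4.23 in Control. Its fitted change there was −0.0092 on the log2(TPM + 1) scale. In edgeR its log2 fold change ran from 0.167 to 1.06 with 1 library left out. In the 3 deepest libraries it was 1.19. The reads counted per TPM, which follow the gene length the estimate used, varied 2.72-fold between libraries for Hoxa9, 2.15-fold for Hoxc5 and 1.89-fold for Hoxd8, against a median of 1.06-fold over 25 tested Hox genes.

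HoxB was the cluster in which every tested gene was lower without overlap, and its median change was the smallest of the 4 clusters. It had 8 tested genes, 7 of them called lower (median log2 fold change −0.91), and a summed level of 130.7, 142.6 and 202.5 TPM in PRC1 i2KO, against 308.9 and 340.8 TPM in Control, a ratio of 0.488. Hoxb6, a thoracic patterning gene, had 16.98, 21.7 and 28.09 CPM in PRC1 i2KO libraries, against 53 and 55.13 CPM in Control. It was 2.41-fold lower (log2 fold change −1.27, SE 0.19, edgeR adjusted p = 0.000815). Hoxb9, which with its paralogs patterns the ribs and the mammary gland, had 14.7, 13.81 and 17.46 CPM in PRC1 i2KO, against 46.36 and 30.86 CPM in Control. The 3 PRC1 i2KO values lay close together below 2 Control values that differed more, a 2.49-fold lower level (log2 fold change −1.32, SE 0.20, edgeR adjusted p = 0.000871). Hoxb3, a hindbrain and neck gene, had 42.45, 38.71 and 46.08 CPM in PRC1 i2KO, against 71.57 and 66.5 CPM in Control. It was 1.63-fold lower with narrow groups (log2 fold change −0.70, SE 0.12, edgeR adjusted p = 0.00172), and its call was lost in the 3 deepest libraries (0.0627) and in the unfiltered fit on TPM (limma adjusted p = 0.0666).

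Hoxb8, whose loss makes mice groom until the skin is bare, had the highest mean TPM of the HoxB genes over all 5 libraries and was the only one not called. In PRC1 i2KO it averaged 34.82 TPM and Hoxb6 24.6 TPM, whereas in Control it averaged 63.92 TPM and Hoxb6 68.28 TPM. It had 30.86, 35.28 and 55.39 CPM in PRC1 i2KO libraries, against 61.36 and 69.55 CPM in Control. PRC1 i2KO replicate 3 came close to the lower Control library, and the 1.61-fold difference was not called (log2 fold change −0.69, SE 0.24, edgeR adjusted p = 0.067). It was called lower without PRC1 i2KO replicate 3 (edgeR adjusted p = 0.000124) and in 4 other settings (7.2e-06 to 0.0264), which were DESeq2, no filter and both replicate blocks. Hoxb2, which guides facial motor neurons, had 21.64, 22.97 and 28.88 CPM in PRC1 i2KO, against 30.62 and 39.43 CPM in Control. Hoxb4, used to expand blood stem cells in culture, had 9.423, 10.52 and 15.78 CPM in PRC1 i2KO, against 23.36 and 27.41 CPM in Control. They were 1.44- and 2.13-fold lower in that order, Hoxb2 with groups that nearly met. Hoxb5, which acts in enteric neural crest cells, had 9.526, 10.38 and 9.415 CPM in PRC1 i2KO, against 17.46 and 22.44 CPM in Control. Hoxb7 had 13.77, 13.11 and 16.25 CPM in PRC1 i2KO, against 19.92 and 29.09 CPM in Control. Their levels were 2.05- and 1.72-fold lower. Without Control replicate 3 the edgeR adjusted p was 0.0634 for Hoxb4, 0.0645 for Hoxb5, 0.376 for Hoxb2 and 0.244 for Hoxb7, and the last 2 were also lost without PRC1 i2KO replicate 1 (0.150 and 0.0559) or 2 (0.144 and 0.0673). With scaling to library totals alone, Hoxb2 was not called. Its call was also lost after thinning, with the replicate block by title number and in the limma fits on log2(TPM + 1) with and without a filter. In the 3 deepest libraries neither Hoxb2 nor Hoxb4 was called.

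HoxC fell in 5 of its 6 tested genes (median log2 fold change −1.07), and its summed level was 62.78, 67.97 and 107.7 TPM in PRC1 i2KO, against 174.3 and 188.3 TPM in Control, a ratio of 0.438. Hoxc6, expressed in the thoracic body wall and mammary gland, had 12.22, 17.19 and 26.04 CPM in PRC1 i2KO libraries, against 47.47 and 50.75 CPM in Control. Even the highest PRC1 i2KO value was far below Control, and it was 2.63-fold lower (log2 fold change −1.40, SE 0.28, edgeR adjusted p = 0.00737), the one HoxC call that held with any single library left out. Hoxc5, a neighbour of Hoxc4 in the cluster, had 3.106, 3.993 and 5.996 CPM in PRC1 i2KO, against 9.469 and 11.19 CPM in Control. It was 2.35-fold lower (log2 fold change −1.23, SE 0.33, edgeR adjusted p = 0.017), a call lost without Control replicate 3 (0.118) or PRC1 i2KO replicate 2 (0.0654) and in the fits on TPM. Hoxc4 had 3.21, 2.725 and 5.523 CPM in PRC1 i2KO, against 8.977 and 9.229 CPM in Control. Its groups stood apart and it was 2.37-fold lower (log2 fold change −1.25, SE 0.36, edgeR adjusted p = 0.0232). Hoxc8, which specifies motor neurons at forelimb level, had the highest mean TPM of the HoxC genes over all 5 libraries, although in Control alone it averaged 68.81 TPM and Hoxc6 70.91 TPM. It had 26.92, 29.88 and 49.28 CPM in PRC1 i2KO, against 62.22 and 71.22 CPM in Control. It was 1.88-fold lower without overlap (log2 fold change −0.91, SE 0.26, edgeR adjusted p = 0.0332).

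Hoxc13 was the only member of paralog groups 10 to 13 with enough reads to test. It is needed to make the hair shaft, and mice without it have brittle hair. It had 23.51, 18.56 and 24.67 CPM in PRC1 i2KO libraries, against 30.37 and 32.54 CPM in Control. The groups did not overlap and the 1.42-fold difference was the smallest of the called Hox genes (log2 fold change −0.51, SE 0.17, edgeR adjusted p = 0.0426). The calls of Hoxc4 (0.0687 to 0.109), Hoxc8 (0.0594 to 0.169) and Hoxc13 (0.0798 to 0.208) were each lost when a library other than PRC1 i2KO replicate 3 was left out, and that of Hoxc13 also with scaling to library totals and in the fits on TPM. Hoxc9, which specifies thoracic motor neurons, had 2.485, 0.8925 and 1.052 CPM in PRC1 i2KO, against 0.7378 and 1.492 CPM in Control. These values overlapped and rest on 6 to 48 reads a library (log2 fold change 0.31, SE 0.75, edgeR adjusted p = 0.786).

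HoxD had the lowest ratio of the clusters, with a summed level of 17.73, 21.4 and 40.48 TPM in PRC1 i2KO, against 112.6 and 84.96 TPM in Control, a ratio of 0.269. It had 4 tested genes, 3 of them called lower (median log2 fold change −2.02), and those 3 calls held with any single library left out. That of Hoxd8 was lost in the unfiltered fit on TPM (limma adjusted p = 0.0642) and that of Hoxd9 in the 3 deepest libraries (edgeR adjusted p = 0.051). Hoxd8, a trunk patterning gene, had 5.488, 8.127 and 13.41 CPM in PRC1 i2KO libraries, against 46.61 and 41.33 CPM in Control. PRC1 i2KO replicate 3 was again the highest of its group but far under Control, and the gene was 4.77-fold lower (log2 fold change −2.26, SE 0.32, edgeR adjusted p = 0.00152). Hoxd9, a lumbar patterning gene, had 1.346, 1.033 and 1.525 CPM in PRC1 i2KO, against 7.255 and 5.283 CPM in Control. The PRC1 i2KO libraries lay close together at 13 to 29 reads each, and the gene was 4.78-fold lower (log2 fold change −2.26, SE 0.42, edgeR adjusted p = 0.00258). Hoxd4, a hindbrain gene that responds to retinoic acid, had 10.04, 10.71 and 15.99 CPM in PRC1 i2KO, against 47.47 and 37.35 CPM in Control. It was 3.42-fold lower without overlap (log2 fold change −1.77, SE 0.22, edgeR adjusted p = 0.000248), the smallest adjusted p of any Hox gene. Hoxd3, its neighbour, had 0, 0 and 3.629 CPM in PRC1 i2KO, against 3.197 and 0.7458 CPM in Control. These values overlapped and its change could not be resolved (log2 fold change −0.58, SE 1.96, edgeR adjusted p = 0.856); it was called without PRC1 i2KO replicate 3 (0.00749), where the other PRC1 i2KO libraries are at 0, and with the replicate block by description number (0.00968).

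**Figure D3:**
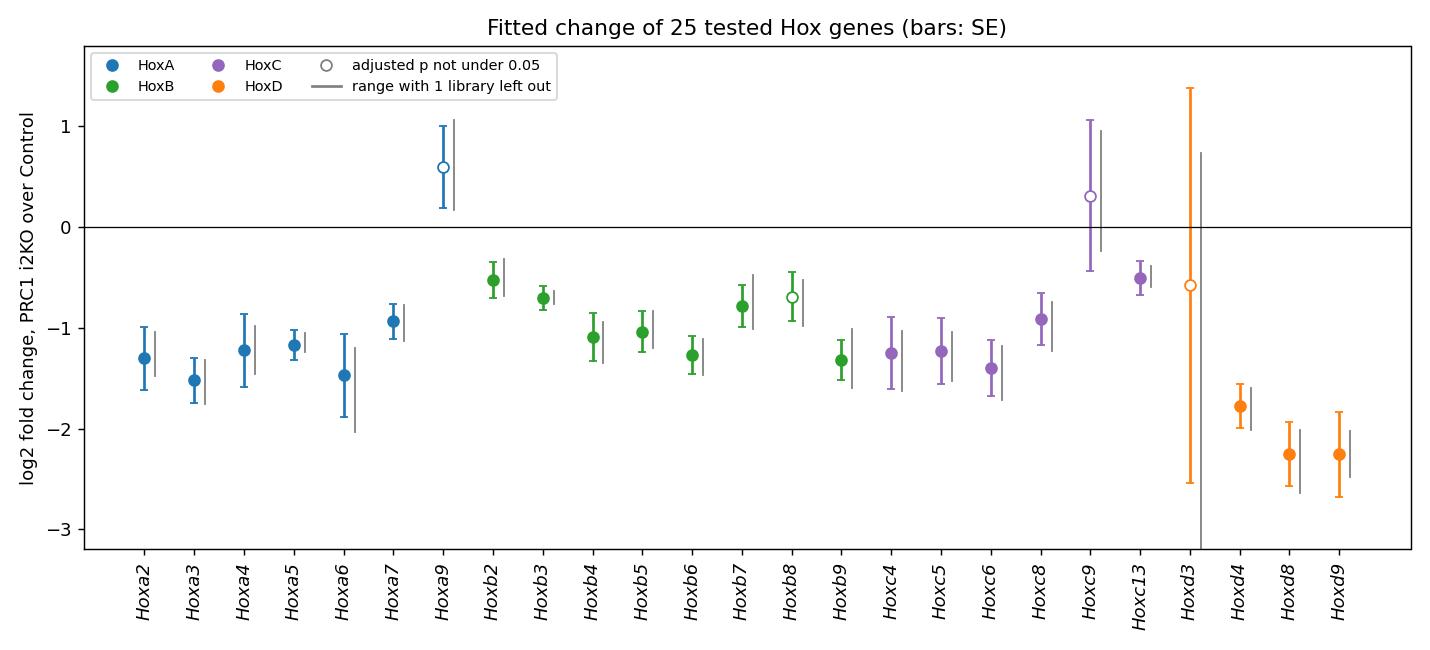
Points give the fitted log2 fold change, PRC1 i2KO over Control, of 25 tested Hox genes in cluster and paralog order, with SE, and open points did not pass the threshold; grey lines span the fits with 1 library left out. The 3 called HoxD genes lie lowest, from −1.77 to −2.26, and the grey line of Hoxd3 runs past the lower end of the axis.

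**Figure D4:**
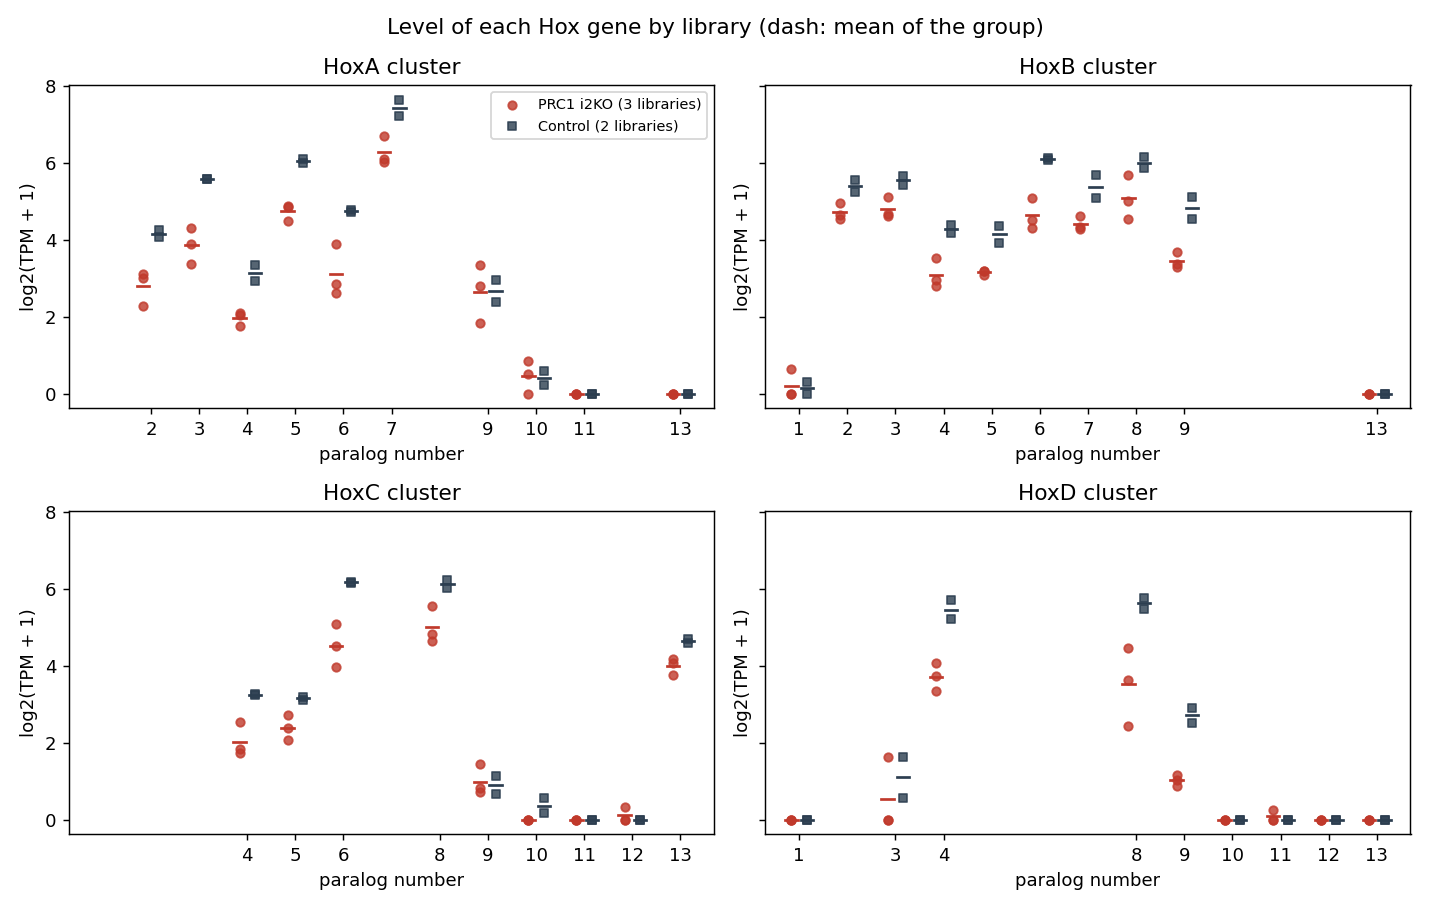
Panels show each cluster, with the paralog number on the x axis and log2(TPM + 1) on the y axis; circles are the 3 PRC1 i2KO libraries, left of the squares of the 2 Control libraries, and dashes are group means. Levels are near 0 from number 10 on except for Hoxc13, and the groups do not overlap for the 15 genes of numbers 4 to 8.

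Apart from Hoxc13, the genes with paralog numbers 10 to 13 were at or near 0 reads in PRC1 i2KO cells and in Control cells. Too few reads to test were found for 13 members, 11 of them among the 12 members with paralog numbers 10 to 13, which shape limbs, kidneys and the tail end of the body. No read was counted in any library for 8 genes, Hoxa11, Hoxa13, Hoxb13, Hoxc11, Hoxd1, Hoxd10, Hoxd12 and Hoxd13. With 0 reads over a group, a level of up to 0.0601 CPM in PRC1 i2KO and 0.0744 CPM in Control could be missed (3 reads over the group, counting error only). Hoxa10 had 0, 5 and 8 reads in PRC1 i2KO, against 2 and 8 reads in Control. Hoxb1 had 2 reads in a single library of each group, Hoxc12 had 3 reads in 1 PRC1 i2KO library, and Hoxd11 had 2. Together the 13 genes had 20 reads in PRC1 i2KO and 28 in Control, or 0.4 CPM over PRC1 i2KO and 0.695 CPM over Control, and none passed 8 reads in a PRC1 i2KO library. Hoxc10, which acts in hindlimb motor neurons, had 0 reads in PRC1 i2KO and 16 in Control, 15 of them in replicate 3. Its pooled Control level of 0.397 CPM was 6.61-fold above the floor of 3 reads over PRC1 i2KO. That ratio allows for no error in the Control reads. The low-count filter removed Hoxc10 from the test. Without that filter it was not called (log2 fold change −5.51, SE 2.71, edgeR adjusted p = 0.133). Its gene model shares an exon with Hoxc5 in GENCODE M21.

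Some Hox genes overlap each other and antisense genes, and the estimated reads were divided between them. In each library, 4 to 8 of the 8 genes made up of Hoxa2, Hoxa3, Hoxa7 and their overlapping genes, antisense genes included, had a fractional value, while the sum over the 8 was whole within 0.02 reads. Sums were also whole within 0.02 reads for Hoxb2 with Hoxb3 and Hoxb3os, where 2 to 3 of 3 genes had a fractional value, and for Hoxd3 with Hoxd4, Hoxd3os1 and Gm28230, where 3 to 4 of 4 had one. Member reads and antisense reads there cannot be told apart. Summed per set and fitted again, these sets were lower in PRC1 i2KO cells, by −1.17 (SE 0.17, edgeR adjusted p = 0.00141) for the HoxA set, −0.62 (SE 0.12, edgeR adjusted p = 0.0032) for the HoxB set and −1.67 (SE 0.24, edgeR adjusted p = 0.00125) for the HoxD set on the log2 scale. The set of Hoxc5 with Hoxc10 was lower by −1.27 (SE 0.33, edgeR adjusted p = 0.0145).

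Of the non-coding genes of the clusters, most had few reads. Hoxaas2, an antisense gene in HoxA, had 1.76, 2.631 and 3.471 CPM in PRC1 i2KO libraries, against 10.08 and 13.89 CPM in Control, and fell (log2 fold change −2.17, SE 0.34, edgeR adjusted p = 0.00101). Hotairm1, a non-coding gene of HoxA, had 0.4142, 1.033 and 1.999 CPM in PRC1 i2KO, against 3.443 and 4.164 CPM in Control, and was not called (log2 fold change −1.68, edgeR adjusted p = 0.0572). Hoxb3os had 1.657, 0.8925 and 4.103 CPM in PRC1 i2KO against 1.968 and 2.455 CPM in Control (edgeR adjusted p = 0.998), and Hoxd3os1, Hoxb5os and Hoxaas3 were not called. Gm53, a gene between Hoxb9 and Hoxb13 that was picked after its values were seen, had 20.09, 15.78 and 23.25 CPM in PRC1 i2KO, against 73.17 and 60.63 CPM in Control. It had the smallest adjusted p of the non-coding genes described here (log2 fold change −1.76, SE 0.18, edgeR adjusted p = 6.4e-05). Hotair, Hottip, Halr1 and the genes of Mir10a, Mir10b and Mir196 had 0 reads in every library, which for short RNAs says little in polyadenylate-selected libraries.

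PBX and MEIS family proteins bind DNA beside Hox proteins, and of 9 such cofactor genes tested 3 were lower and 6 not called (median log2 fold change −0.26). Pbx3 had 19.16, 14.7 and 19.62 CPM in PRC1 i2KO libraries, against 38 and 35.71 CPM in Control (log2 fold change −1.05, SE 0.17, edgeR adjusted p = 0.00121). Pknox2 had 8.905, 7.469 and 12.78 CPM in PRC1 i2KO, against 22.63 and 24.52 CPM in Control (log2 fold change −1.28, SE 0.25, edgeR adjusted p = 0.00314). Both were lower without overlap and with any single library left out. The call of Pbx3 was lost in the unfiltered fit on TPM (0.06) and that of Pknox2 in the 3 deepest libraries (0.0502). A further 17 genes belong to MLL complexes, H3K27 demethylases and CTCF with cohesin, which keep Hox genes active or divide their domains. Of these, 1 was lower, 4 were higher and 12 were not called (median 0.04). Beside this list and the cofactor genes, 15.1% of all tested genes were called lower and 18.8% higher. Kmt2a, which encodes MLL1, was lower (log2 fold change −0.37, edgeR adjusted p = 0.0139, up to 0.113 with 1 library left out). Smc1a (0.54, edgeR adjusted p = 0.00457) and Men1 (0.54, edgeR adjusted p = 0.0158) were higher, and neither was called in the fits on TPM.

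Genes just outside the clusters moved in both directions, where 15.1% of all tested genes were called lower and 18.8% higher. On the HoxA side 5 flanking genes were tested, 2 lower, 1 higher and 2 not called, with Tax1bp1 lower (log2 fold change −0.64, edgeR adjusted p = 0.000789), Skap2 lower (−0.41, 0.0252) and Hibadh higher (0.48, 0.0165). The last 2 calls were lost with 1 of several libraries left out (up to 0.103 and 0.101). On the HoxB side 2 of 5 were higher, Atp5g1 (0.75, edgeR adjusted p = 0.00155) and Ube2z (0.52, 0.0045, not called in the fits on TPM), and 3 were not called. On the HoxC side 2 of 7 were lower, 2 higher and 3 not called. Atp5g2 (0.49, edgeR adjusted p = 0.00807) and Hnrnpa1 (0.67, 0.00964) were higher and Calcoco1 (−0.41, 0.023) was lower, and each call was lost without Control replicate 3. That of Calcoco1 was also lost without Control replicate 1 or PRC1 i2KO replicate 1 or 2. Hnrnpa1 was also not called without PRC1 i2KO replicate 2, and neither Atp5g2 nor Hnrnpa1 was called in the fits on TPM. On the HoxD side 0 of 4 were called in edgeR or DESeq2, and 0 had an unadjusted p under 0.05 in either tool, with Hnrnpa3 at 0.29 (edgeR adjusted p = 0.127) and Nfe2l2 at 0.29 (0.143). Evx1 and Evx2, homeobox genes at the posterior ends of HoxA and HoxD, had 0 reads, as did all 6 ParaHox and Cdx genes.

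Few of the genes that Hoxc13 is known to act on in the hair shaft had enough reads to test. Of Foxn1, a target of Hoxc13 that is needed for hair, and 12 shaft keratins, 2 were tested and both were higher in PRC1 i2KO cells. Of all tested genes, 18.8% were called higher. Foxn1 had 2.899, 3.147 and 1.999 CPM in PRC1 i2KO libraries, against 0.3689 and 0.1865 CPM in Control (log2 fold change 3.41, SE 0.73, edgeR adjusted p = 0.00565). Krt32 had 5.074, 7.422 and 7.732 CPM in PRC1 i2KO, against 2.705 and 2.051 CPM in Control (log2 fold change 1.54, SE 0.37, edgeR adjusted p = 0.01). Both calls were lost without Control replicate 3 (0.0528 and 0.0856), and that of Foxn1 also in the limma fit on log2(TPM + 1).

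Retinoic acid, made by retinaldehyde dehydrogenases and degraded by CYP26 enzymes, turns on anterior Hox genes in embryos. Of 9 tested genes of its handling, 2 were lower, 3 higher and 4 not called. Over all tested genes, 15.1% were called lower and 18.8% higher. Crabp2, a carrier that brings retinoic acid to its receptors, was higher at 43.8, 46.32 and 45.39 CPM in PRC1 i2KO libraries, against 1.968 and 2.517 CPM in Control (log2 fold change 4.27, SE 0.19, edgeR adjusted p = 7.5e-07). Crabp1, a related carrier, was lower at 1.657, 1.879 and 2.893 CPM in PRC1 i2KO, against 23.98 and 14.2 CPM in Control (log2 fold change −3.11, SE 0.34, edgeR adjusted p = 0.00012). Aldh1a1, which makes retinoic acid, was called higher with 14.91, 9.536 and 4.523 CPM in PRC1 i2KO against 1 read in each Control library (edgeR adjusted p = 0.000233). Cyp26b1, which degrades it and was added after its values were seen, had 2.796, 3.805 and 8.047 CPM in PRC1 i2KO, against 187 and 214.9 CPM in Control (log2 fold change −5.30, edgeR adjusted p = 0.00065). The genes named here differed without overlap between the groups, but they were picked by small adjusted p or after their values were seen. The part of retinoic acid in the Hox results was not tested.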

How the data were processed

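Per the file headers, the authors deposited a table with estimated counts and TPM (length-scaled, summing to the same total in every library) for each library. The build was mm39, and the tools listed were RSEM 1.3.3, STAR 2.7.9a and DESeq2 1.38.2, per the submitters' processing notes. Not given in the sources used here were the annotation and strandedness. Expected counts (9.06% of genes had a fractional value) were rounded and fitted over the whole table with edgeR 4.0.16 (R 4.3.3): filterByExpr, TMM factors (0.983 to 1.02), robust quasi-likelihood F test with genotype as the only term, and Benjamini-Hochberg adjustment over 15665 genes, called under 0.05. SE is that of the log2 fold change, and CPM values use TMM-scaled totals. The test was checked on simulated data. Alternatives used other scalings, DESeq2 1.42.0, limma 3.58.1 on log2(TPM + 1), filters, thinning to 8270407 reads, blocks and leaving out single libraries. Summing genes that share reads was added after seeing the data.

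Library pairs within groups differed by more than counting noise (chi-square over its degrees of freedom 9.8 to 39). Each cluster's 3 members with the smallest adjusted p, its most abundant member by TPM and the other uncalled tested members carry full statistics; of each gene list up to 3 called genes with the smallest adjusted p are named. Results of 1 member and 1 list gene are not reported here. Members, lists and markers were chosen with earlier results of these data known. 1362 genes have no symbol. Among the remaining marker lists, melanocytes had 1 lower and 2 higher of 5 tested, Schwann cells 2 higher of 5, Langerhans cells and macrophages 1 higher of 5, smooth muscle 1 higher of 3, T cells and adipocytes 1 higher of 1, and endothelial cells 0 of 1. Over all tested genes, 15.1% were called lower and 18.8% higher. Sox10 counts in both the melanocyte and the Schwann cell list. Calls of Sox10, Ncam1, Tagln, Thy1 and Cidec were each lost in fits with 1 library left out. Intervals and floors cover counting error only.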

Additional observations from a re-analysis of the deposited data

How the results depend on the processing

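Against 21 Hox genes called lower of 26, other settings called 21 (RLE), 19 (library totals), 21 (upper quartile), 21 (scaling without ribosomal protein genes), 22 (DESeq2), 22 of 31 (no filter), 21 (mean of at least 1 CPM), 18 and 19 (limma on log2(TPM + 1) and log2(TPM + 0.1)), 14 (the first of these without a filter), 17 (thinned) and 18 of 22 (genes that share reads summed). In the 3 deepest libraries, with 1 Control library assumed to vary like the rest, 10 were called, with 3 in HoxA, 4 in HoxB, 1 in HoxC, 1 anterior, 8 central and 1 posterior. With 1 library left out, the counts ran from 11 to 23 in all, 3 to 6 in HoxA, 3 to 8 in HoxB, 1 to 5 in HoxC, 3 to 4 in HoxD, 3 to 5 anterior, 6 to 15 central and 2 to 3 posterior, and the median log2 fold change from −1.30 to −1.03. HoxC had 3 calls in the limma fits on log2(TPM + 1) and log2(TPM + 0.1), 1 in the unfiltered TPM fit, 3 after thinning and 3 with the replicate block by title number, and anterior genes had 2 in the unfiltered TPM fit and 2 with shared genes summed. The cause was not tested. No setting called a Hox gene higher.

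Signs reversed for uncalled genes alone: Hoxa9 stood at −0.0092, −0.0350 and −0.0092 in the fits on log2(TPM + 1), log2(TPM + 0.1) and unfiltered TPM; Hoxc9 at −0.6037 in the 3 deepest libraries, and from −0.2396 (without PRC1 i2KO replicate 1) to 0.9592 with 1 library left out, and −0.0521 without Control replicate 1. Hoxd3 stood at 1.2786 in the 3 deepest libraries and between −8.0649 (without PRC1 i2KO replicate 3, fitted against libraries at 0, so no bound) and 0.7356 (without Control replicate 1), with 0.0512 without PRC1 i2KO replicate 2. The median log2 fold change of all genes, −0.006 with edgeR, was −0.10 and −0.14 in the fits on log2(TPM + 1) and log2(TPM + 0.1) and −0.048 in the unfiltered TPM fit. The replicate block by title number called 18 Hox genes and the one by description number 22. The numbers do not establish pairs: the titles share 2 numbers, and the description numbers 1 Control library differently. Samples with the same title number correlated at 0.074 and 0.115 in their deviations, and the other pairs at −0.115 to 0.043. With 2 Control libraries the Control deviations mirror each other, so these values cannot decide on pairing. Depth limits the genes with paralog numbers 10 to 13, for which 3 reads over a group could be missed.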
